A study of Rattus norvegicus with 12 samples.

Results

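The genes followed here encode the Hippo kinases, their adaptor and the membrane-side regulators that hold the coactivators YAP and TAZ in check. They were chosen by symbol, as Lats1, Lats2, Amot, Amotl1, Amotl2, Nf2, Stk3, Stk4, Sav1 and Frmd6. Of these 10 symbols, 8 were rows of the table of 12271 genes, and all 8 passed the filter on low values. No level of Amot or Amotl1 was analysed here. The question put to these 8 genes was which of them depended on Yap, which encodes YAP (listed as Yap1), and which on Wwtr1, the gene for TAZ.

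Cardiac fibroblasts, which lay down the heart's extracellular matrix, came from ventricles of Sprague Dawley rats at postnatal day 2 and were grown in serum-containing medium. Each of the 4 groups held 3 libraries. The labels and the methods of the study give different serum levels and different culture times before transfection. The labels put collection at 48 h after transfection, whereas the methods of the study count 48 h from a medium change made the day after it, and which holds for these libraries was not settled. Negative control cells received the universal negative control siRNAs #1 and #2. Yap siRNA cells and Wwtr1 siRNA cells each received 2 siRNAs against the named gene at 25 nM apiece. The double knockdown carried the label Yap+Wwtr1 siRNA, although its treatment label names only the Wwtr1 siRNAs. The design text of the series calls the cells myocytes, whereas the titles and the study call them fibroblasts. All 11 fibroblast markers checked had reads in every library, with summed levels of 2686500 to 3888580 normalized counts. The 11 cardiomyocyte markers also had reads in every library, at sums of 36209 to 80551, and no comparison was made between the lists because levels are not per length. The labels give no genotype beyond the strain, and the siRNAs lowered transcripts without deleting the genes.

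In the Hippo pathway the kinases MST1 and MST2, encoded by Stk4 and Stk3, act with the adaptor SAV1 to activate the kinases LATS1 and LATS2. The LATS kinases phosphorylate YAP and TAZ, which keeps both out of the nucleus, where they would otherwise bind TEAD factors and switch on genes for growth, adhesion and matrix. Merlin, encoded by Nf2, and the angiomotins bring LATS kinases or YAP to membranes and junctions. LATS2 and AMOTL2 are known in other cells as targets of YAP and TAZ that feed back on them.

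Lats2 and Amotl2 both fell after Yap siRNA and under the double knockdown. Neither was called after Wwtr1 siRNA in the fit without pairing. Amotl2 passed there with the replicate number as a block (BH-adjusted p = 0.0222 over all libraries). It also passed without the double knockdown libraries (BH-adjusted p = 0.00747), whose numbers were not taken to pair. Lats2 dropped by 39.9% with Yap siRNA and by 47.5% in the double knockdown, and its mean was 6.3% lower with Wwtr1 siRNA. Amotl2 dropped by 27.8% with Yap siRNA and by 69.6% in the double knockdown, and its mean was 16.9% lower with Wwtr1 siRNA. Frmd6 fell in the double knockdown and was not called after either single siRNA with all libraries in the fit, blocked or not. Sav1 rose both after Wwtr1 siRNA and after the combined siRNAs. The test throughout was limma over all genes, with p-values adjusted by the Benjamini-Hochberg method (BH).

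Promoter sequence of 6 of the 8 genes was taken from RefSeq on assembly GRCr8, and the promoters of Lats2 and Stk3 were not analysed here. Windows from 250 bases before to 50 bases after each start site were searched on both strands for the core letters bound by TEAD factors, CATTCC or its complement GGAATG, and for AP-1 letters, TGANTCA. The TEAD letters occurred in 2 of the 6 genes, Amotl2 and Sav1. Of all rat genes with a window, 15.03% of 27457 held them, and of all 33469 windows 14.2%. The Amotl2 and Sav1 promoters are shown, the 2 with TEAD letters. Both genes changed in the double knockdown, in opposite directions. Frmd6 also fell there, and its window held no TEAD letters. Each is printed 5′ to 3′ for the 250 bases before the start site, with the TEAD letters in capitals. Those letters begin 76 bases before the start site in Amotl2, within chr8:112182376-112182625 on the plus strand, and 167 bases before it in Sav1, within chr6:94236099-94236348 on the minus strand.
Amotl2: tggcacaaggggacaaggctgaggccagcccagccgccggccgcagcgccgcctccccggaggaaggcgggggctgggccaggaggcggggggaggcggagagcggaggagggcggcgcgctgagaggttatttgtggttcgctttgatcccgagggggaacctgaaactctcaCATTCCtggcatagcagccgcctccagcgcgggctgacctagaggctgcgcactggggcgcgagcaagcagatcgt
Sav1: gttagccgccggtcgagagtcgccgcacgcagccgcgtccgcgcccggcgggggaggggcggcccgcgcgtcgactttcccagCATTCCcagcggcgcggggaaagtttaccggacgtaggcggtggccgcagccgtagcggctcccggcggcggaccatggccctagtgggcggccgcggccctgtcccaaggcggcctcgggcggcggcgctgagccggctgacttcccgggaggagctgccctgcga
The windows of Lats1, Nf2, Stk4 and Frmd6 held no TEAD letters. AP-1 letters occurred in Stk4 alone, as TGACTCA 78 bases before the start site, against 8.04% of all genes and 7.33% of all windows. A match of letters is a description of the sequence and shows no binding. The reads themselves were mapped to rn6, so these positions belong to another assembly.

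The knockdown itself was read from the targeted genes. Yap1 stood at 3042, 3776 and 2984 normalized counts in the negative control libraries and at 532, 576 and 625 after Yap siRNA. The combined siRNAs left Yap1 at 713, 739 and 1474, with replicate 3 the highest. Wwtr1 stood at 2364, 2565 and 2280 in negative control libraries, at 524, 550 and 637 after Wwtr1 siRNA, and at 818, 731 and 1056 under the double knockdown. Yap siRNA left Wwtr1 at 2134, 2500 and 2374, and Wwtr1 siRNA left Yap1 at 3169, 3151 and 3184, in both cases overlapping the negative control. The means of both targets were higher in the double knockdown than in the single ones, with Wwtr1 0.59 log2 above its level after Wwtr1 siRNA (SE 0.13, BH-adjusted p = 0.00804). The corresponding difference for Yap1 was 0.67 (SE 0.22, BH-adjusted p = 0.0623). It was 0.33 without double knockdown replicate 3 (adjusted p = 0.0581), and it passed with edgeR, with DESeq2 and without double knockdown replicate 1 or 2, at up to 0.86.

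Counts in genes summed to between 33886920 and 41059839 a library, and no pair of replicates agreed within counting noise. These sums exceed the read depth stated in the methods of the study, and the difference was not examined. Replicate 3 of the double knockdown stood apart, with 46950 summed normalized counts of 11 macrophage markers against 6547 and 13440 in replicates 1 and 2. Negative control libraries held 22150 to 31813, Yap siRNA libraries 18592 to 27339 and Wwtr1 siRNA libraries 11304 to 19342. Of these macrophage markers, Cx3cr1 was at 0 in at least 1 library. The 12 endothelial markers summed to 4803 to 5281 in the negative control, 4148 to 4516 after Yap siRNA, 6122 to 6486 after Wwtr1 siRNA and 4878 to 5815 in the double knockdown, so that the first 3 groups did not overlap. The 8 mesothelial markers summed to between 1282 and 2312 across all libraries. Emcn, Krt18 and Krt19 were at 0 in at least 1 library. Either single siRNA called at most 1 marker of each of these lists. The double knockdown, in which 17.1% of all genes were called higher and 15.6% lower, called 7 of 12 endothelial and 3 of 11 cardiomyocyte markers higher, 1 of 11 macrophage markers lower, and 1 of 8 mesothelial markers in each direction. Of the 11 fibroblast markers it called 4 higher and 3 lower. The part of these markers in the member results, those after single siRNAs included, was not tested. In RNA from whole cultures, fewer cells of a type cannot be told apart from less RNA per cell.

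**Figure D1:**
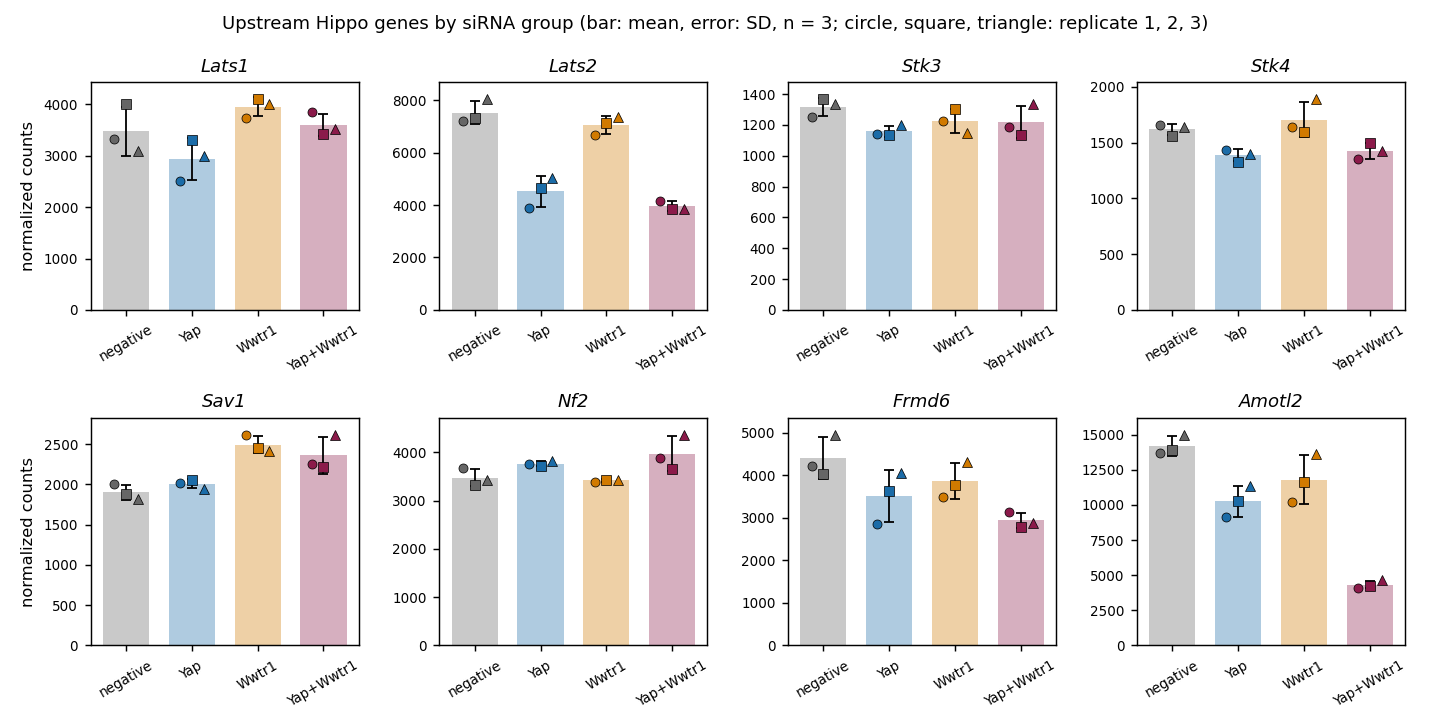
Normalized counts (vertical axis, from 0) of the 8 genes in the 4 siRNA groups, with circles, squares and triangles for replicates 1, 2 and 3, bars for the mean and error bars for the SD (n = 3). Lats2 is low wherever Yap siRNA was given, and Amotl2 is lowest in the double knockdown, at 4105 to 4625.

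Neither Stk3 nor Stk4, the kinases at the head of the cascade, was called against the negative control. Stk3 (MST2) was at 1253, 1367 and 1334 normalized counts in negative control libraries, 1139, 1136 and 1201 after Yap siRNA, 1224, 1304 and 1149 after Wwtr1 siRNA and 1186, 1137 and 1336 under the double knockdown. The Yap siRNA libraries lay below every negative control library, yet none of the 7 comparisons passed for Stk3. The largest of its differences from the negative control was -0.19 log2 with Yap siRNA, with a 95% interval from -0.37 to -0.0045 (BH-adjusted p = 0.244).

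Stk4 (MST1) was at 1657, 1557 and 1637 in negative control libraries and at 1432, 1327 and 1397 after Yap siRNA. It was at 1637, 1592 and 1888 after Wwtr1 siRNA and at 1356, 1498 and 1420 in the double knockdown. Both groups given Yap siRNA lay below the negative control without overlap, but neither difference passed, at -0.22 log2 (SE 0.080, BH-adjusted p = 0.143) and -0.18 (SE 0.080, BH-adjusted p = 0.0994). Stk4 was lower with Yap siRNA than with Wwtr1 siRNA by 0.30 log2 (log2 difference -0.30, SE 0.080, BH-adjusted p = 0.0404). It was also lower in the double knockdown than with Wwtr1 siRNA (-0.26, SE 0.080, BH-adjusted p = 0.0413). Both calls were near the threshold. The first was lost without any 1 of the 9 negative control, Yap siRNA or Wwtr1 siRNA libraries (-0.34 to -0.22, adjusted p up to 0.139). The second was lost without any negative control library, Yap siRNA replicate 3, Wwtr1 siRNA replicate 1 or 3, or double knockdown replicate 1 or 3 (-0.30 to -0.18, adjusted p up to 0.165). Each was also lost when only the groups compared were fitted and without a trend of the variance with intensity.

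Sav1, the adaptor that joins the MST and LATS kinases, was the only one of the 8 genes called higher than the negative control. It was at 2003, 1877 and 1816 normalized counts in negative control libraries and at 2022, 2051 and 1944 after Yap siRNA, ranges that overlapped. After Wwtr1 siRNA it was at 2610, 2451 and 2415, above every negative control and Yap siRNA library. The combined siRNAs gave 2251, 2209 and 2618, again above every negative control library. Sav1 rose by 31.2% with Wwtr1 siRNA (log2 fold change 0.39, SE 0.077, BH-adjusted p = 0.00859) and by 24.2% in the double knockdown (0.31, SE 0.077, BH-adjusted p = 0.00937). With Yap siRNA the difference was 0.080 (SE 0.077), with a 95% interval from -0.088 to 0.25.

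Set directly against each other, Sav1 was lower with Yap siRNA than with Wwtr1 siRNA (log2 difference -0.31, SE 0.077, BH-adjusted p = 0.0288). That call was lost when any of the 6 Yap siRNA or Wwtr1 siRNA libraries was left out, with values from -0.33 to -0.28 and an adjusted p up to 0.0913. The rise with Wwtr1 siRNA and that in the double knockdown passed in every alternative tried. Adding Yap siRNA to Wwtr1 siRNA left Sav1 5.3% lower, a difference of -0.082 log2 with an interval from -0.25 to 0.086.

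Of the LATS kinases, which phosphorylate YAP and TAZ directly, Lats2 was called against the negative control and Lats1 was not. Lats1 was at 3321, 4010 and 3094 normalized counts in negative control libraries and at 2505, 3308 and 2996 after Yap siRNA. After Wwtr1 siRNA it was at 3745, 4102 and 4006, and in the double knockdown at 3845, 3431 and 3528. The negative control overlapped all 3 knockdown groups, and no Lats1 comparison with it passed. The differences were -0.24 log2 with Yap siRNA (SE 0.11, BH-adjusted p = 0.256), 0.19 with Wwtr1 siRNA (BH-adjusted p = 0.331) and 0.059 under the double knockdown (BH-adjusted p = 0.726). Lats1 was lower with Yap siRNA than with Wwtr1 siRNA (-0.44, SE 0.11, BH-adjusted p = 0.0343), a call lost without Yap siRNA replicate 1 or 3 or any Wwtr1 siRNA library (-0.53 to -0.33, adjusted p up to 0.12) and without a trend.

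Lats2 was at 7203, 7334 and 8033 normalized counts in negative control libraries and at 3877, 4654 and 5025 after Yap siRNA. Wwtr1 siRNA left it at 6658, 7126 and 7360, overlapping the negative control. The combined siRNAs gave 4163, 3851 and 3834, overlapping the Yap siRNA libraries. The 6 libraries given Yap siRNA thus all lay at or below 5025, and the 6 not given it all at or above 6658.

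With Yap siRNA, Lats2 fell by 0.74 log2 units (SE 0.091, BH-adjusted p = 0.00336), and in the double knockdown by 0.93 (SE 0.091, BH-adjusted p = 3.34e-05). The difference with Wwtr1 siRNA was -0.094, with a 95% interval from -0.29 to 0.11 (BH-adjusted p = 0.584). Lats2 was lower with Yap siRNA than with Wwtr1 siRNA (log2 difference -0.65, SE 0.091, BH-adjusted p = 0.00206). Going from Wwtr1 siRNA to the double knockdown lowered Lats2 by 44.0% (-0.84, SE 0.091, BH-adjusted p = 0.000209), while going from Yap siRNA to the double knockdown gave -0.19, with an interval from -0.39 to 0.012 (BH-adjusted p = 0.199). The last of these passed without Yap siRNA replicate 1, where it was -0.29 with adjusted p = 0.0351, and in no other alternative. All 4 called Lats2 differences passed in every alternative, the 12 fits without 1 library included.

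Nf2 and Frmd6 encode FERM-domain proteins, Merlin and Willin, that act at the membrane. Nf2 was at 3665, 3331 and 3428 normalized counts in negative control libraries, 3751, 3724 and 3821 after Yap siRNA, and 3386, 3436 and 3432 after Wwtr1 siRNA. With the combined siRNAs Nf2 was at 3893, 3653 and 4367, of which replicate 2 overlapped the negative control. No Nf2 comparison passed. The double knockdown against the negative control gave 0.19 log2 (SE 0.070, BH-adjusted p = 0.057), which passed with DESeq2 and without double knockdown replicate 2 (0.25, adjusted p = 0.0271). Without double knockdown replicate 3, the library that stood apart, it was 0.12 (adjusted p = 0.185). Against Wwtr1 siRNA it gave 0.21 (SE 0.070, BH-adjusted p = 0.0525), which passed in 4 alternatives, those 2 and the fits with a mean of at least 100 and with the replicate block.

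Frmd6 was at 4207, 4038 and 4956 normalized counts in negative control libraries and at 2864, 3620 and 4058 after Yap siRNA, with an overlap between the groups. Wwtr1 siRNA left it at 3495, 3777 and 4323. In the double knockdown it was at 3135, 2794 and 2879, below every negative control library and every Wwtr1 siRNA library. Frmd6 fell by 33.3% in the double knockdown (log2 fold change -0.58, SE 0.13, BH-adjusted p = 0.00455), a call that held in every alternative.

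Neither single siRNA moved Frmd6 past the threshold, at -0.33 log2 with Yap siRNA (SE 0.13, BH-adjusted p = 0.168) and -0.19 with Wwtr1 siRNA (SE 0.13, BH-adjusted p = 0.411). With the replicate number as a block over all libraries the Yap siRNA difference of Frmd6 did not pass either (BH-adjusted p = 0.0903), and it passed only when the double knockdown libraries were dropped as well (BH-adjusted p = 0.01). Without Yap siRNA replicate 1 it was -0.19 (adjusted p = 0.473). It was negative in all 3 pairs, at -0.55, -0.16 and -0.29. Frmd6 was lower in the double knockdown than with Wwtr1 siRNA (-0.39, SE 0.13, BH-adjusted p = 0.048), a call lost without negative control replicate 1 or 2, Yap siRNA replicate 2, Wwtr1 siRNA replicate 2 or 3, or any double knockdown library (-0.46 to -0.31, adjusted p up to 0.177) and without a trend. The step from Yap siRNA to the double knockdown was -0.25, with an interval from -0.52 to 0.031.

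**Figure D2:**
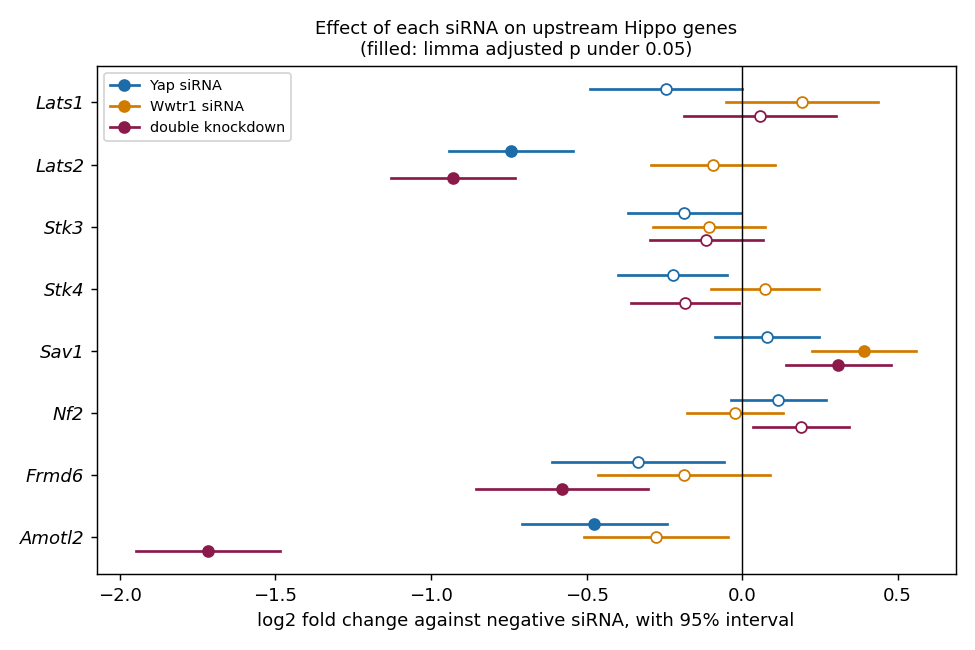
Log2 fold change against the negative control (horizontal axis) of the 8 genes in each knockdown group, with lines for the 95% interval and filled points where the BH-adjusted p is under 0.05. All 3 comparisons share the 3 negative control libraries. Amotl2 reaches -1.72 in the double knockdown, and Sav1 has the only filled points above 0.

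Amotl2 encodes an angiomotin-like protein that binds YAP at junctions and promotes its phosphorylation by LATS kinases. It was at 13706, 13894 and 15015 normalized counts in negative control libraries, 9170, 10267 and 11321 after Yap siRNA and 10182, 11606 and 13639 after Wwtr1 siRNA. The combined siRNAs left 4105, 4235 and 4625. The single-siRNA groups overlapped each other and lay below every negative control library, and the double knockdown lay far below both, its highest library at less than the lowest single-siRNA one of 9170.

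With Yap siRNA, Amotl2 fell by 0.47 log2 units (SE 0.11, BH-adjusted p = 0.0302). With Wwtr1 siRNA the difference was -0.28 (SE 0.11, BH-adjusted p = 0.138). In the double knockdown Amotl2 fell by 1.72 (SE 0.11, BH-adjusted p = 4.55e-06), and it was lower there than with Yap siRNA (-1.24, BH-adjusted p = 0.000117) and than with Wwtr1 siRNA (-1.44, BH-adjusted p = 4.70e-05).

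The 2 single siRNAs were not told apart on Amotl2, with a difference of -0.20 log2 and an interval from -0.43 to 0.033 (BH-adjusted p = 0.276). The call with Yap siRNA alone was close to the threshold: it was lost without negative control replicate 1, 2 or 3, without Yap siRNA replicate 1 or 2, and without Wwtr1 siRNA replicate 2, with values from -0.55 to -0.40 over all such fits and an adjusted p up to 0.129. It was also lost without a trend of the variance with intensity in the fit. With the replicate number as a block, the fall with Wwtr1 siRNA passed as well (BH-adjusted p = 0.0222 over all libraries and 0.00747 in the 3 paired groups alone), at -0.43, -0.26 and -0.14 in the 3 pairs. Without the block it ran from -0.38 without Wwtr1 siRNA replicate 3, where it passed, to -0.17 without Wwtr1 siRNA replicate 1 (adjusted p = 0.41). Amotl2 was not called between the single siRNAs with the block over all libraries (BH-adjusted p = 0.0756), and it was lower with Yap siRNA in the 3 paired groups alone (BH-adjusted p = 0.0336), at -0.15, -0.18 and -0.27 in the pairs. The blocked fit of 3 groups also called more genes at large, 16.2% of those tested with Yap siRNA, 21.6% with Wwtr1 siRNA and 22.8% between them.

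The fall of Amotl2 in the double knockdown was larger than both single effects added as log2 values. This was tested as an interaction, the effect of Wwtr1 siRNA with Yap siRNA present minus its effect without. For Amotl2 it was -0.97 (SE 0.15, 95% interval -1.29 to -0.64, BH-adjusted p = 0.0155), and it passed in every alternative, with adjusted p-values from 6.92e-07 to 0.0495. This was the only called interaction among the 8 genes, against 1.03% of all 11871 genes tested in either direction and 0.607% below 0. In normalized counts, a description added after the values were seen, the mean of Amotl2 was 14205 in the negative control, 10253 with Yap siRNA and 11809 with Wwtr1 siRNA. Multiplying the single effects gives 8523 and adding them gives 7857, while the double knockdown was at 4322 ± 271 (SD, n = 3). Wwtr1 itself was higher in these double knockdown libraries than after Wwtr1 siRNA, while the difference of Yap1 from its level after Yap siRNA did not pass.

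**Figure D3:**
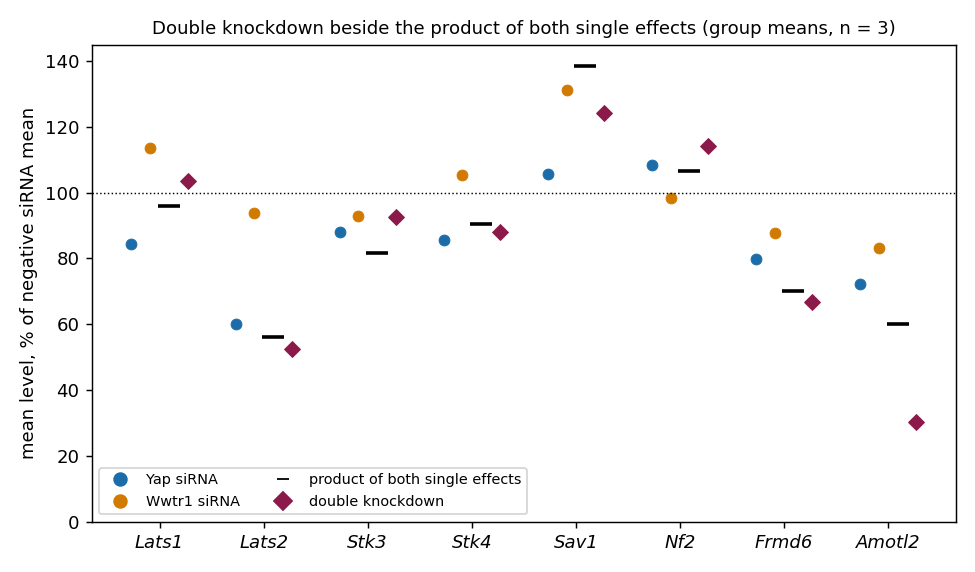
Mean level as a percent of the negative control mean (vertical axis, from 0) for each of the 8 genes, with circles for Yap siRNA and Wwtr1 siRNA, a dash for the product of the 2 single effects and a diamond for the double knockdown (n = 3 a group). The diamond of Amotl2 lies well under its dash, at 4322 against 8523 normalized counts, while Lats2 lies close to its own, at 3950 against 4234.

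For Lats2 the interaction was -0.093, with an interval from -0.37 to 0.19 (BH-adjusted p = 0.811), so a departure from the sum of the single effects was not detected. For Frmd6 it was -0.059, with an interval from -0.45 to 0.33, and for Sav1 -0.16, with an interval from -0.40 to 0.076. The interval of Frmd6 is wide beside its fall of 0.58. The interactions of Lats1, Stk3, Stk4 and Nf2 ran from -0.034 to 0.18, and none passed.

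**Figure D4:**
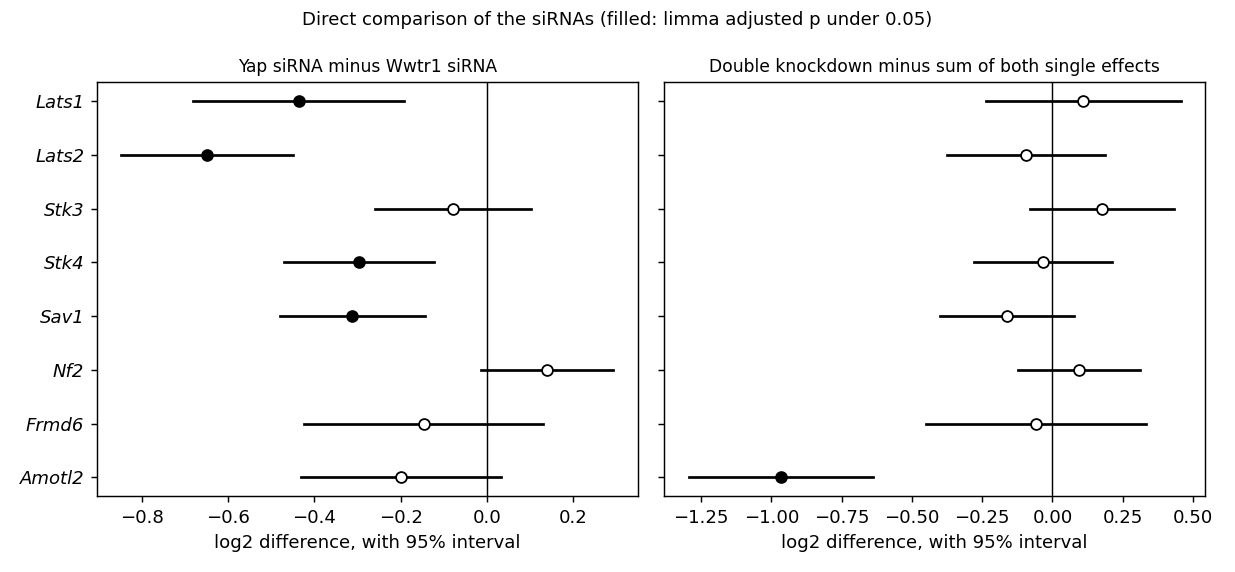
Log2 differences (horizontal axes) of the 8 genes for Yap siRNA minus Wwtr1 siRNA (left) and for the double knockdown minus the sum of both single effects (right), with lines for the 95% interval and filled points where the BH-adjusted p is under 0.05. On the left Lats2 is lowest at -0.65. On the right only Amotl2 is filled, at -0.97.

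Counted over the 8 genes, 2 were called with Yap siRNA, Lats2 and Amotl2, both lower, where 4.8% of all genes were called and 1.78% were lower. Leaving out 1 library gave a count of 1, Lats2 alone, in 6 of 12 fits (without any negative control library, replicate 1 or 2 of Yap siRNA or replicate 2 of Wwtr1 siRNA) and 2 in the others, while the share of all genes called ran from 0.935% to 6.44%. With Wwtr1 siRNA 1 was called, Sav1, higher, against 8.96% of all genes in either direction and 5% higher. In the double knockdown 4 were called, Lats2, Amotl2 and Frmd6 lower and Sav1 higher, against 32.8% of all genes, 15.6% lower and 17.1% higher. The median log2 fold change of the 8 was -0.23, -0.058 and -0.15 in these comparisons, and that of all genes was -0.0041, 0.0047 and 0.0035.

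Between the single siRNAs 4 of the 8 were called, Lats1, Lats2, Stk4 and Sav1, all lower with Yap siRNA, against 8.79% of all genes in either direction and 4.22% lower. Leaving out 1 library reduced this count to between 1 and 4, and Lats2 was called in each of those fits. From Yap siRNA to the double knockdown Amotl2 alone was called, lower, against 13.8% of all genes in either direction and 6.96% lower. From Wwtr1 siRNA to the double knockdown Lats2, Amotl2, Stk4 and Frmd6 were called, all lower, against 19.9% of all genes in either direction and 10.1% lower. Without double knockdown replicate 3, the library with the high macrophage marker sum, the last count was 2, Lats2 and Amotl2. It also fell to 2 without negative control replicate 1 or 2, Wwtr1 siRNA replicate 3 or double knockdown replicate 1, and without a trend. The 4 calls of the double knockdown against the negative control were the same genes without double knockdown replicate 3.

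Interferon-induced genes rose with every targeting siRNA and are given beside the members for that reason. Of 30 such genes listed 25 were tested, and 25 were higher after Yap siRNA, 24 after Wwtr1 siRNA and 25 under the double knockdown, with median log2 fold changes of 4.13, 4.06 and 5.59. Their summed normalized counts were 12568 to 21197 in the negative control. The sums of replicates 1, 2 and 3 were 122070, 88913 and 48979 after Yap siRNA, 156560, 109406 and 40755 after Wwtr1 siRNA, and 208289, 213217 and 167642 under the double knockdown. Oas2 and Zbp1 were at 0 in at least 1 library.

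Within both single-siRNA groups, the library with the highest interferon sum had the lowest Amotl2, Lats2 and Frmd6 levels, and the library with the lowest sum had the highest. The double knockdown did not keep this order, with the highest sum in replicate 2 and the lowest in replicate 3. In its replicates 1, 2 and 3 Amotl2 was at 4105, 4235 and 4625. Lats2 was at 4163, 3851 and 3834 there, and Frmd6 at 3135, 2794 and 2879. Replicate 3 was also the highest negative control library for these genes, at an interferon sum close to that of replicate 1. The part of the interferon response in the Amotl2, Lats2, Frmd6 and Sav1 results was not tested.

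**Figure D5:**
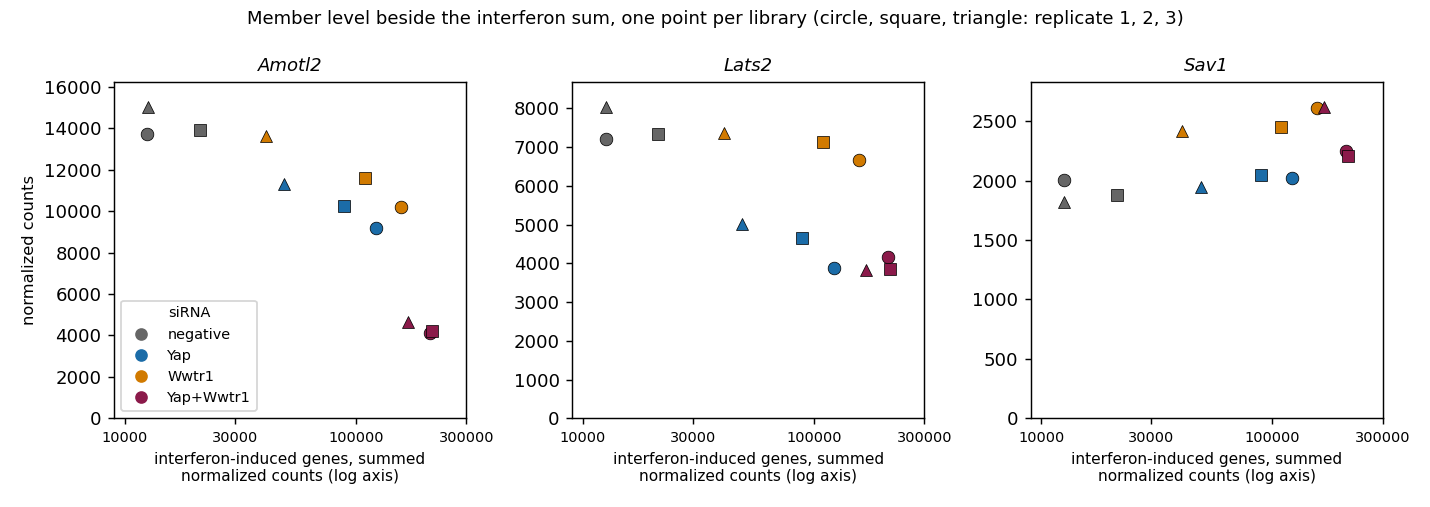
Normalized counts of Amotl2, Lats2 and Sav1 (vertical axes, from 0) beside the summed normalized counts of interferon-induced genes (horizontal log axis), with 1 point per library, colours for the 4 groups and circles, squares and triangles for replicates 1, 2 and 3. The interferon sum is lowest in the negative control, at 12568 to 21197, and highest in the double knockdown, at 167642 to 213217, where Amotl2 is at 4105 to 4625.

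The genes with patterns most like those of the 4 called members were named by the smallest root mean square difference of centred log2 levels over the 12 libraries, among 10101 genes. For Amotl2 they were Ccn1 (difference 0.135), Fads3 (0.175) and Itga11 (0.175). Ccn1 encodes a secreted matricellular protein widely used as a readout of YAP and TAZ, and its log2 fold changes were -0.52 for Yap siRNA, -0.35 for Wwtr1 siRNA and -1.63 for the double knockdown. For Lats2 they were Sorbs2 (0.109), Smarcd3 (0.117) and Lgalsl (0.12). Sorbs2, which encodes a cytoskeletal adaptor, was at -0.67, -0.12 and -0.94 in the same order. The patterns nearest to Sav1 were Thra (0.0788), Nol3 (0.0941) and Rxylt1 (0.096), and to Frmd6 Hnrnph1 (0.0793), Nop56 (0.0949) and Kctd10 (0.0991).

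Of 83 other upstream genes of the pathway, 71 were tested. With Yap siRNA 3 rose and 3 fell, 8.45% of the 71, where 4.8% of all genes were called. With Wwtr1 siRNA 4 rose and 5 fell, 12.7%, where 8.96% of all genes were called, and in the double knockdown 9 rose and 14 fell, 32.4%, close to the 32.8% of all genes, of which 17.1% were higher and 15.6% lower. By role, the double knockdown called 2 of 10 upstream kinases, both higher, 4 of 11 adaptors and scaffolds, all lower, and 5 of 16 members of the STRIPAK phosphatase complex, which removes activating phosphates from MST kinases, all lower. It called 10 of 18 cell surface and polarity genes, 6 higher and 4 lower, neither of the 2 NDR kinases, and 2 of 14 genes for protein turnover of the pathway, 1 in each direction.

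Ajuba, a LIM-domain protein that restrains LATS kinases, fell after Yap siRNA and under the double knockdown. It was at 4357, 4130 and 5112 normalized counts in negative control libraries and at 2417, 2456 and 3114 after Yap siRNA. Wwtr1 siRNA left it at 3720, 4138 and 4753, overlapping the negative control, and the double knockdown at 1916, 1935 and 1658. Ajuba fell by 0.77 log2 with Yap siRNA (SE 0.12, BH-adjusted p = 0.00753) and by 1.30 in the double knockdown (SE 0.12, BH-adjusted p = 2.98e-05). Fjx1, a secreted regulator in the Fat and Dachsous branch, fell by 0.83 with Yap siRNA (SE 0.14, BH-adjusted p = 0.00998) and by 1.05 in the double knockdown (SE 0.14, BH-adjusted p = 0.00026).

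Mob1a, the coactivator subunit of LATS kinases, fell after Wwtr1 siRNA and under the double knockdown. It was at 5211, 5490 and 5399 normalized counts in negative control libraries, 4261, 4207 and 4556 after Yap siRNA, 2769, 3369 and 3124 after Wwtr1 siRNA and 2541, 3132 and 3819 under the double knockdown. The fall of Mob1a was 0.80 log2 with Wwtr1 siRNA (log2 fold change -0.80, SE 0.12, BH-adjusted p = 0.0023) and 0.78 under the double knockdown (-0.78, SE 0.12, BH-adjusted p = 0.000591). With Yap siRNA the difference of Mob1a was -0.31 and did not pass (SE 0.12, BH-adjusted p = 0.189). Stk38l, an NDR kinase, fell by 0.69 with Wwtr1 siRNA (SE 0.20, BH-adjusted p = 0.0478) and was at -0.29 in the double knockdown (BH-adjusted p = 0.283). Ppp2cb, a catalytic subunit of the phosphatase PP2A, fell by 0.30 with Yap siRNA (SE 0.074, BH-adjusted p = 0.0447) and by 0.33 under the double knockdown (SE 0.074, BH-adjusted p = 0.00527).

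Tnik, a kinase of the MAP4K and germinal centre kinase families, rose with every siRNA, by 0.95 log2 with Yap siRNA (BH-adjusted p = 0.00857), 1.41 with Wwtr1 siRNA (BH-adjusted p = 0.000602) and 1.00 under the double knockdown (BH-adjusted p = 0.000641). Taok3, an upstream kinase, rose by 0.37 with Yap siRNA and 0.28 under Wwtr1 siRNA, and Patj, a polarity scaffold, by 0.58 with Wwtr1 siRNA (BH-adjusted p = 0.0205, 0.0422 and 0.0263). Under the double knockdown Taok3 rose by 0.43 (BH-adjusted p = 0.00134) and Patj by 0.50 (BH-adjusted p = 0.0197). Dchs1, an atypical cadherin, rose by 0.37 with Yap siRNA (BH-adjusted p = 0.0413), was at 0.31 with Wwtr1 siRNA (BH-adjusted p = 0.0501) and rose by 1.05 in the double knockdown (BH-adjusted p = 1.54e-05). Fat3, another atypical cadherin, rose by 1.46 in the double knockdown (SE 0.41, BH-adjusted p = 0.0182), where its libraries were at 139, 102 and 331 normalized counts and the highest was replicate 3. Rassf4 fell by 1.32 there (SE 0.29, BH-adjusted p = 0.00479), from 5661, 6265 and 8479 to 1824, 2598 and 4059.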

How the data were processed

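RNA from 12 cultures of rat cardiac fibroblasts was sequenced after transfection. Per the labels and the study's methods, the authors trimmed reads with Trim Galore 0.6.5, aligned them to rn6 with HISAT2, assembled counts with StringTie and normalized with DESeq2. The deposited signal values are gene counts divided by 1 size factor per library. Multiplying back gave whole counts, within 0.001, for 100% of 147252 values. Deposited tables of the authors' own fold changes and p-values were not used. How reads shared between related genes or strands were counted is not given in the sources used here.

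The 11871 genes whose mean reached 10 normalized counts entered limma 3.58.1 on log2(normalized count + 1), which understates changes of low genes. All 12 libraries entered 1 fit with an intensity trend, and p-values were adjusted over all genes by Benjamini-Hochberg at 0.05. Fold changes are on that log2 scale, and percent changes compare group means. Levels are not per length, so they were not compared between genes. Alternatives were other pseudocounts (0.1 and 10), filters, scalings, edgeR 4.0.16 and DESeq2 1.42.0 on recovered reads, no trend, the groups compared alone, a replicate block and each library left out. The fitting code was tested on simulated data.

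Replicates came from separate litters per the study's methods. Correlations of the deviations of same-numbered libraries were all above 0.1 among the negative control, Yap siRNA and Wwtr1 siRNA groups (0.104 to 0.276), so the numbers were taken to pair these, from the data. With the double knockdown they ran from -0.127 to 0.18, so its numbers were not taken to pair with the others. Whether the double knockdown libraries came from the same litters as the other groups was not settled.

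Named were all members and both targets, up to 3 called pathway genes per direction and comparison with the largest change and a mean of at least 100, and the 3 genes nearest in pattern to each member called in the double knockdown. A result that this rule names is not reported here. The members and lists were chosen with earlier results of these data known.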

Additional observations from a re-analysis of the deposited data

Results flagged for a closer look

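The effect of Wwtr1 siRNA on Amotl2 differed between cells with and without Yap siRNA by a direct test of that difference, an interaction of -0.97 in log2 units (SE 0.15, BH-adjusted p = 0.0155 by limma). Without Yap siRNA the effect was -0.28, and with it -1.24. Of the other 7 members none had a called interaction.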

How the results depend on the processing

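Over 56 member effects and 1304 refits, 1230 kept direction and side of the threshold, 49 lost and 13 gained the threshold, and 12 changed sign, none of them called. Without a trend the count of members called fell from 2 to 1 with Yap siRNA, from 4 to 2 between the single siRNAs and from 4 to 2 between the double knockdown and Wwtr1 siRNA. DESeq2 raised the count between the double knockdown and Yap siRNA from 1 to 2 (Sav1). With the replicate block the count with Wwtr1 siRNA rose from 1 to 2 (Amotl2), with or without the double knockdown libraries, and between the double knockdown and Wwtr1 siRNA it was 5. The block changed no other count of members by over 1.5 times. The cause was not tested. Leaving out each library gave counts of 1 to 2 with Yap siRNA, 1 to 2 with Wwtr1 siRNA, 4 to 5 in the double knockdown, 1 to 4 between the single siRNAs, 1 to 2 between the double knockdown and Yap siRNA, 2 to 4 between it and Wwtr1 siRNA, and 1 for the interaction.

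Signs changed only without 1 library, for differences near 0. Leaving out each library gave log2 ranges of -0.021 to 0.17 for Lats1 in the double knockdown and -0.00042 to 0.20 for its interaction, -0.053 to 0.016 for Nf2 and -0.0020 to 0.12 for Stk4 with Wwtr1 siRNA, and -0.076 to 0.040 for Stk3 between the double knockdown and Wwtr1 siRNA. The interaction ranged from -0.081 to 0.042 for Stk4 and from -0.20 to 0.052 for Frmd6. Of the targets, Yap1 with Wwtr1 siRNA ranged from -0.097 to 0.073, and Wwtr1 with Yap siRNA from -0.092 to 0.022.

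Over all genes the number called with Yap siRNA was 570, against 1013 with DESeq2, 294 without a trend, 874 with the replicate block and 1918 with the block and without the double knockdown libraries. With Wwtr1 siRNA it was 1064 against 2567 in the last of these, and between the single siRNAs 1044 against 2708. The interaction called 122 genes, 503 with DESeq2, 231 with the block and 60 without a trend, and the double knockdown against Yap siRNA 1637, or 774 when fitted on those groups alone. Leaving out each library gave 111 to 764 genes with Yap siRNA, 548 to 1419 with Wwtr1 siRNA, 434 to 1409 between them, 758 to 1873 and 1288 to 2340 for the double knockdown against Yap siRNA and Wwtr1 siRNA, and 31 to 160 for the interaction. With 3 libraries a group, small effects on Stk3, Stk4 and Nf2 remain undecided within their intervals.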
